A study of Xenopus laevis with 45 samples.

Results

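The comparison described here sets the response of Xenopus laevis tadpoles to one erythroferrone morpholino against the response to another at stage 37/38. It is the difference of 2 differences: 10 ng of ERFE MO1 minus 10 ng of control morpholino (cMO), less 20 ng of ERFE MO2 minus 20 ng of cMO. The 12 libraries of these 4 groups, 3 per group, were taken by their labels from 45 libraries. All 4 groups are embryos injected at the 8-cell stage into 4 vegetal blastomeres, raised in 0.1x MBS and sequenced whole, and the uninjected embryos quoted beside them received no oligo. The labels name no strain, mutation or transgene. Morpholino and amount change together, because MO1 was given at 10 ng and MO2 at 20 ng, so a difference between the oligos and a difference between the amounts cannot be told apart. The sources used here do not give which part of the erythroferrone transcript each oligo binds, nor whether it acts on translation or splicing.

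Erythroferrone is a hormone that red cell precursors release in mammals. It binds bone morphogenetic proteins (BMPs) and thereby lowers liver hepcidin, the peptide that restrains iron uptake and release. Morpholinos are synthetic antisense oligos that bind an RNA and block its translation or splicing. A second oligo against the same transcript is commonly used to tell responses shared by both from responses of one alone. When DNA or other damage is sensed, cells induce genes of cell cycle arrest, DNA repair and cell death, together with feedback genes such as mdm2 that limit the response.

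The 12 libraries hold 25881961 to 41922031 counts and detect 34884 to 35961 genes, and 3 counts, the limit that a count of 0 allows, equal 0.0716 to 0.116 CPM (depth-scaled counts) per library, counting error only. Labels do not say whether same-group libraries came from separate clutches, so the p-values reflect only how far these samples spread, and that spread may be technical. Organ markers were present as in whole embryos, with 43 of 46 heart muscle, 46 of 49 liver plasma protein, 29 of 30 red blood cell and 55 of 58 eye genes of the files passing the filter on low counts. One pair of libraries with different labels was nearly alike, and whether either label is wrong was not tested. The library labelled MO2, stage 35/36, replicate 1 differed from MO1, stage 37/38, replicate 2 by a chi-square of 1.22 per gene over 31834 genes, the smallest among 990 pairs of libraries. The next closest pairs, at 3.78, 4.59, 4.84 and 5.12, were same-numbered libraries of the 10 and 20 ng cMO groups of 1 stage, and the closest pair within one group gave 10.2. The MO2 library at stage 35/36 was left out of every fit except the alternative with all 45 libraries. MO1 replicate 2 is one of the 12 libraries and lies 27.1 and 28.3 from its groupmates, which lie 14.3 from each other. Without MO1 replicate 2 the comparison called 395 genes, 216 of them among the 249 (86.7%) called with it. A stage score, on which uninjected embryos averaged -0.00 at stage 35/36 and 0.92 at stage 41, averaged 0.22 to 0.29 in the 4 groups, with an SD of 0.04 to 0.07 (n = 3).

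The targeted transcript, listed as fam132b.L, was lower with both oligos. Its level was 3.99, 5.19 and 5.92 CPM with 10 ng cMO and 2.88, 2.86 and 4.6 CPM with MO1. It was 3.83, 3.99 and 6.4 CPM with 20 ng cMO and 1.94, 2.43 and 3.89 CPM with MO2, against 4.53 to 5.27 CPM in uninjected embryos. The ranges of each oligo and its control overlap, and the fall shows within same-numbered libraries. The MO1 response was -0.57 ± 0.15 (log2 fold change ± SE, n = 3 per group, adjusted p = 0.026) and the MO2 response -0.79 ± 0.16 (adjusted p = 0.0037). The difference in response was 0.22 ± 0.22 (adjusted p = 0.79, 95% interval -0.21 to 0.65). That interval still holds a difference of up to 0.65 log2 between the oligos in the transcript's level. A transcript level does not measure a block of translation.

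Across 32110 genes, the responses to MO1 and to MO2 differed for 249 genes (0.775% of those tested) at an adjusted p under 0.05, 182 with the higher response to MO1 (0.567%) and 67 with the lower (0.209%). The absolute difference ran from 0.29 to 4.89 log2 and exceeded 2-fold for 111 genes. Taken alone, MO1 changed 1519 genes (4.73%) and MO2 changed 844 (2.63%). Of the 1346 genes called with MO1 and not with MO2, 164 differed between the oligos and 1182 did not pass that test, so a call with one oligo alone mostly left the difference unresolved. A further 173 genes were called with both, 168 of them in the same direction, and 1 of those 168 differed between the oligos. Raising the control morpholino from 10 to 20 ng called 0 genes in edgeR (0%, 926 genes at an unadjusted p under 0.05, smallest adjusted p 1) and 0 in DESeq2.

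The 249 genes fall into 5 patterns by which response was itself called. The largest, 164 genes, was called with MO1 and not MO2, 140 of them higher and 24 lower with MO1. For the 140 higher genes the median response was 1.09 log2 to MO1 and -0.02 to MO2, and for 96 of them the 95% interval of the MO2 response lay within 1.5-fold of no change, as it did for 67.4% of all genes. The second pattern, 69 genes, was called with MO2 and not MO1, 34 lower with MO2 (median response -0.67 to MO2 and 0.11 to MO1) and 35 higher with MO2 (median 0.54 to MO2 and -0.13 to MO1). The interval of the MO1 response lay within 1.5-fold of no change for 45 of these 69 genes and for 65.3% of all genes. In all 249 genes the 3 responses to MO1, each taken within a replicate number, did not overlap the 3 responses to MO2, as in 18.5% of all genes. The 249 genes were selected on these same libraries, so their separation is a description and adds no support to the calls. In 5 genes the responses were called in opposite directions, in 1 gene in the same direction at different sizes, and in 10 genes neither response was called alone. The plot of both responses shows the first pattern along the horizontal axis and the second along the vertical axis.

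**Figure D1:**
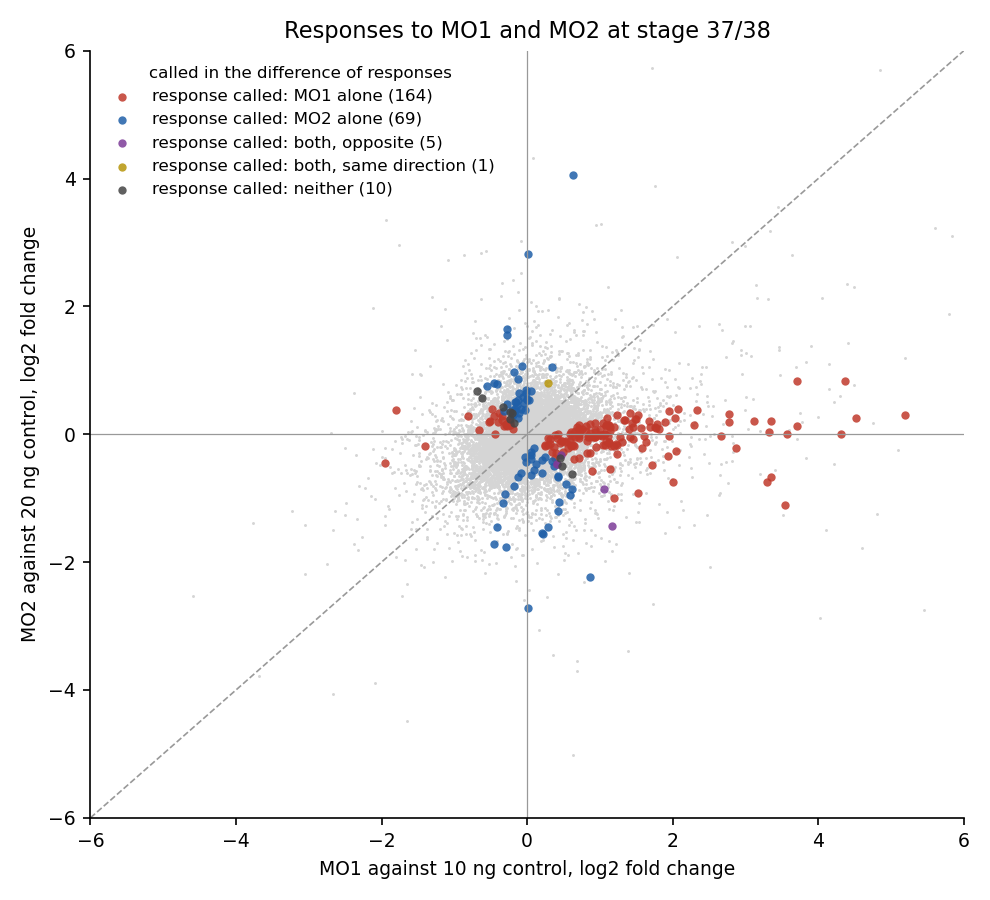
Log2 fold change with MO1 against 10 ng control (horizontal) and with MO2 against 20 ng control (vertical) at stage 37/38, 1 point per tested gene; grey points are not called in the difference of responses, coloured points are the 249 called genes by which response was called, the dashed line marks equal responses, and 5 uncalled genes lie beyond the axes. The 164 genes called with MO1 alone lie along the horizontal axis, most to the right of 0.

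Genes of the damage response formed the list with the largest share of called members. The lists and their members were chosen with earlier results of these data known, so this ranking is a description and not a test. The list of DNA damage response, arrest and death genes had 74 tested members. Of these, 13 (17.6%, against 0.775% of all genes) had a higher response to MO1 and 0 a lower one. At an unadjusted p under 0.05 there were 28 members, against 3493 of all 32110 genes. DESeq2 called 16 members higher and 1 lower, against 294 and 143 genes in all. The MO1 response was called for 28 members (26 higher, against 2.5% of all genes, and 2 lower, against 2.23%), the MO2 response for 3 (2 higher, 1 lower, against 2.63%), and the members' median difference was 0.16 log2, against 0.005 over all genes. Of the 26 members that rose with MO1, 20 had an MO2 response whose interval lay within 1.5-fold of no change, which held for 67.4% of all genes, so that share is near the background. All 13 calls held without MO1 replicate 2, and 2 held without the replicate term.

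The feedback gene mdm2.L, a ubiquitin ligase, stood at 39, 36.1 and 34.7 CPM with 10 ng cMO and at 172, 86.7 and 133 CPM with MO1. It stood at 41.2, 37.5 and 39.1 CPM with 20 ng cMO and at 42.9, 39.6 and 42.4 CPM with MO2. Every MO1 library lay above every other library, with MO1 replicate 2 the lowest of them, and the MO2 libraries overlap their controls. The MO1 response was 1.81 ± 0.14 (3.51-fold), the MO2 response 0.09 ± 0.14 (95% interval -0.19 to 0.36) and the difference 1.72 ± 0.20 (adjusted p = 6.7e-06). The homeolog mdm2.S stood at 39.1, 37.9 and 46.3 CPM with 10 ng cMO, 96, 61.3 and 90.8 CPM with MO1, 42.1, 40.4 and 53.5 CPM with 20 ng cMO and 44.6, 45.3 and 53.7 CPM with MO2. Its MO1 libraries were again the high group, and the difference was 0.92 ± 0.14 (adjusted p = 8e-04), although L and S copies can share reads and are not fully separate measurements.

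Among the arrest genes, cdkn1a.L, the p21 inhibitor of cyclin-dependent kinases, stood at 20.6, 16.4 and 19.1 CPM with 10 ng cMO and 72.2, 32.2 and 67.7 CPM with MO1. It stood at 23.1, 18.1 and 25.6 CPM with 20 ng cMO and 25.1, 20.9 and 24.9 CPM with MO2. The MO1 libraries do not overlap the others, while the MO2 libraries lie inside the range of their controls. The difference was 1.47 ± 0.21 (adjusted p = 0.00026). Both copies of ccng1, which encodes cyclin G1, also differed, by 1.23 ± 0.26 for ccng1.L (adjusted p = 0.015) and 1.08 ± 0.20 for ccng1.S (adjusted p = 0.0056). The stress-response sestrin sesn1 differed by 1.13 ± 0.23 for the S copy and 0.70 ± 0.15 for the L copy (adjusted p = 0.011 and 0.015), and the kinase plk2.L by 0.56 ± 0.12 (adjusted p = 0.02).

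Among the death and damage genes, eda2r.L, a receptor of the tumour necrosis factor family, moved most. It stood at 9.16, 7.31 and 8.49 CPM with 10 ng cMO and at 162, 62.6 and 120 CPM with MO1. It stood at 15.1, 8.12 and 22 CPM with 20 ng cMO and at 24.2, 20.1 and 34.3 CPM with MO2. The MO1 libraries stood far above all others, and the MO2 range overlaps its control range but reaches higher. The difference was 2.86 ± 0.36 (adjusted p = 4.1e-05); the MO2 response of 0.84 ± 0.25 did not pass (adjusted p = 0.066), and its 95% interval of 0.35 to 1.34 does not lie within 1.5-fold of no change. The nuclease gene aen.L differed by 1.06 ± 0.21 (adjusted p = 0.0071) and the translesion polymerase polk.L by 0.96 ± 0.21 (adjusted p = 0.018). The death receptor gene fas.L differed 2-fold (adjusted p = 0.022). The calls of these smaller differences were lost more often when libraries were left out: over the 13 calls of the list, 6 to 15 of 15 leave-out fits (median 11) kept a call. Under the list of apoptosis genes, bcl2l11.L, the Bim cell death activator, was the 1 called member of 35 (2.86%, against 0.775% of all genes; 0.88 ± 0.16, adjusted p = 0.0031).

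**Figure D2:**
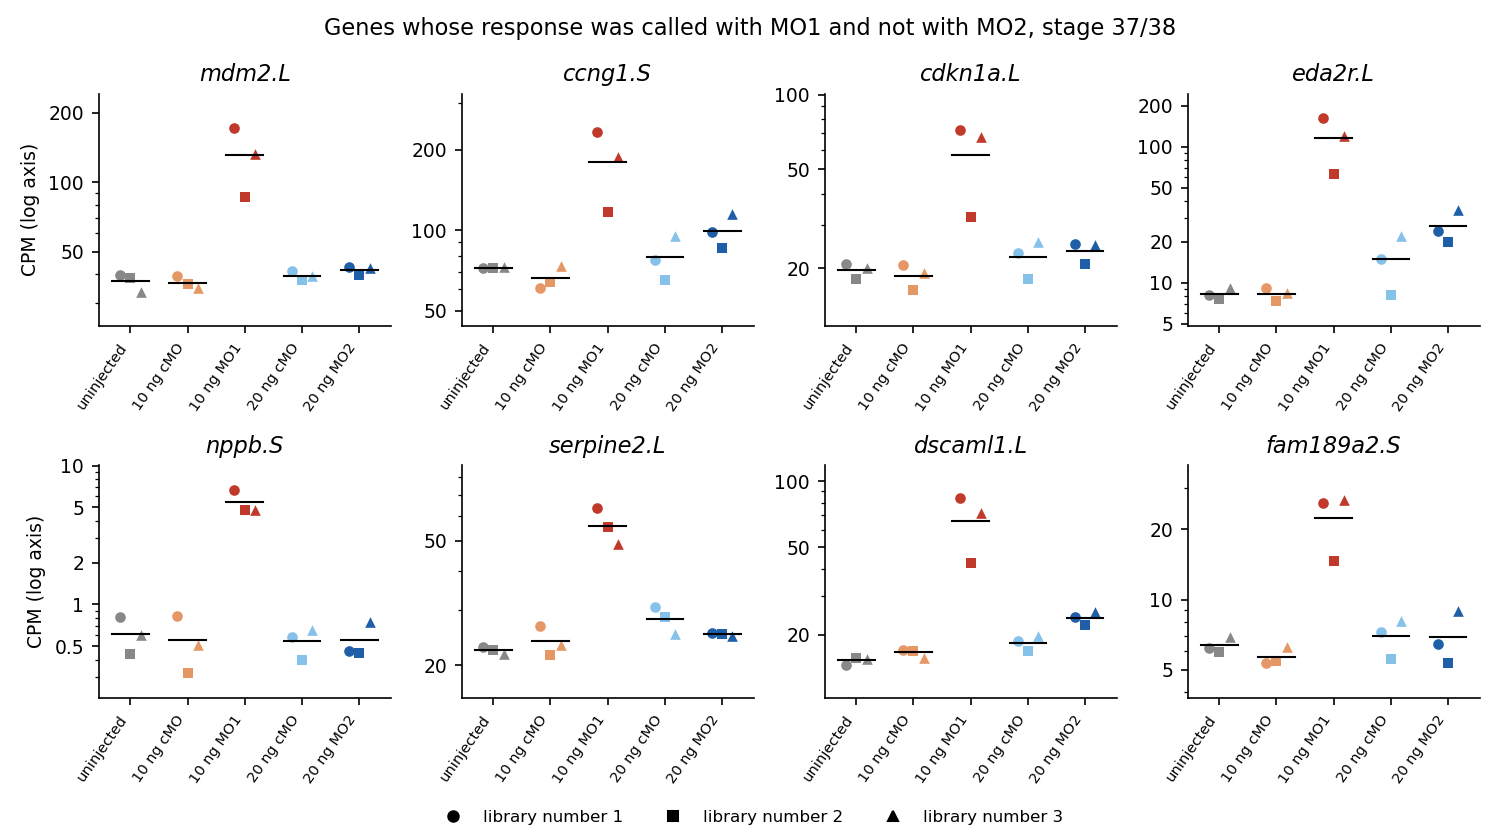
CPM on a log axis in each library at stage 37/38 for 8 genes called with MO1 and not MO2; each symbol is 1 library, its shape is the library number, and the bar is the group mean of 3. In all 8 genes the 3 MO1 libraries lie above every other library, and in 6 of them MO1 replicate 2 is the lowest MO1 library.

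Other genes answered to MO1 outside the damage response list. The secreted protease inhibitor serpine2.L stood at 26.8, 21.6 and 23.2 CPM with 10 ng cMO, 63.5, 55.3 and 48.8 CPM with MO1, 30.6, 28.5 and 25.2 CPM with 20 ng cMO and 25.4, 25.2 and 24.9 CPM with MO2. The MO1 libraries again form the only high group, here with replicate 2 in the middle. The difference was 1.38 ± 0.19 (adjusted p = 0.00012). The adhesion molecule gene dscaml1.L differed by 1.58 ± 0.21 (adjusted p = 8.9e-05), fam189a2.S by 1.97 ± 0.26 (adjusted p = 7e-05) and the mitotic entry phosphatase cdc25c.L by 1.03 ± 0.19 (adjusted p = 0.0037). The smallest p-values of all belonged to Xelaev18007062m.g and LOC100490020.L, which the files give no symbol and which were picked after their values were seen. They differed by 3.58 ± 0.39 and 2.91 ± 0.31 (adjusted p = 4.9e-06 for each).

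Several of the largest differences belonged to genes under 1 CPM in the control groups. Some control values of rpl3l.S and lif.S lay near or below the level of 3 counts, 0.0716 to 0.116 CPM. The sizes of these 2 differences are therefore uncertain. The muscle ribosomal protein gene rpl3l.S stood at 0.0591, 0.0803 and 0.0779 CPM with 10 ng cMO and at 2.97, 1.51 and 4.5 CPM with MO1. It stood at 0.0649, 0.0333 and 0.237 CPM with 20 ng cMO and at 0.0925, 0.131 and 0.179 CPM with MO2. The MO1 libraries stood above all others, and the difference was 4.89 ± 0.96 (adjusted p = 0.0067), with an adjusted p of 0.29 without 20 ng cMO replicate 3. The natriuretic peptide gene nppb.S, a marker of strained heart muscle, stood at 0.828, 0.321 and 0.506 CPM with 10 ng cMO, 6.66, 4.83 and 4.8 CPM with MO1, 0.584, 0.399 and 0.652 CPM with 20 ng cMO and 0.463, 0.444 and 0.742 CPM with MO2. All MO1 libraries stood above all others, with a difference of 3.28 ± 0.64 (adjusted p = 0.0075). The cytokine gene lif.S rose from 0.0591, 0.161 and 0.156 CPM to 3.75, 2.69 and 2.42 CPM with MO1 and read 0.486, 0.0998 and 0.356 CPM with 20 ng cMO and 0.555, 0.418 and 0.179 CPM with MO2. Its difference of 4.26 ± 1.01 (adjusted p = 0.021) was kept in 6 of 12 fits that each left out 1 library and was lost without replicate 1 of any of the 4 groups or without replicate 3 of 20 ng cMO or MO2. For cnfn.S, which encodes cornifelin, a single library, MO1 replicate 2 at 11.2 CPM beside 0.988 and 1.6 CPM, stood apart. Its difference of 4.66 ± 1.07 (adjusted p = 0.019) was lost without that library, as it was without replicate 2 of 10 ng cMO or MO2 or replicate 3 of 20 ng cMO. Also among the largest were lhcgr.L (4.05 ± 0.99, adjusted p = 0.027), tnfsf14.S (4.03 ± 0.82, adjusted p = 0.0071) and arhgef33.S (3.57 ± 0.64, adjusted p = 0.0016). The call of lhcgr.L was kept in 6 of 12 fits that left out 1 library, and those of tnfsf14.S and arhgef33.S in all 12.

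Fewer genes were lower with MO1, and their changes were smaller. The median response of the 24 genes was -0.37 log2 to MO1 and 0.17 to MO2, and the median difference was -0.59. For 19 of the 24 the interval of the MO2 response lay within 1.5-fold of no change, as for 67.4% of all genes. The 24 genes were selected on the difference, so the MO2 median is a description. The ribosome assembly factor nol11.S stood at 51, 46.5 and 50.2 CPM with 10 ng cMO, 27.6, 36.6 and 39.3 CPM with MO1, 45.6, 46.7 and 49.5 CPM with 20 ng cMO and 54.2, 51.3 and 56.2 CPM with MO2. MO1 libraries were the lowest and MO2 libraries the highest. The difference was -0.71 ± 0.14 (adjusted p = 0.0083, and 0.056 without MO1 replicate 1). The substrate adaptor gene abtb2.S differed by -0.63 ± 0.12 (adjusted p = 0.0052), with responses of -0.34 ± 0.08 to MO1 and 0.29 ± 0.08 to MO2, the second not called (adjusted p = 0.054). The histone deacetylase gene hdac2.L differed by -0.73 ± 0.16 (adjusted p = 0.016), a call lost without replicate 1 of 10 ng cMO, MO1 or MO2 or without replicate 2 of 20 ng cMO.

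Among the 35 genes raised by MO2 and not by MO1, the chromatin reader phf12.S stood at 20.7, 24.6 and 21.7 CPM with 10 ng cMO, 18.9, 21 and 21.7 CPM with MO1, 19.8, 20.8 and 22.4 CPM with 20 ng cMO and 41.1, 37.5 and 36.4 CPM with MO2. The MO2 libraries stood apart from all 9 others. The MO2 response was 0.87 ± 0.09, the MO1 response -0.12 ± 0.09 and the difference -0.99 ± 0.13 (adjusted p = 7.1e-05), kept in all 23 alternative fits. The zinc finger gene thap1.S rose from 5.38, 7.88 and 7.41 CPM with 20 ng cMO to 14.2, 13.2 and 12.9 CPM with MO2, and stood at 8.22, 8.67 and 8.22 CPM with 10 ng cMO and 6.6, 8.43 and 7.21 CPM with MO1. The MO2 libraries do not overlap the others, and the difference was -1.15 ± 0.19 (adjusted p = 0.0013). The hyaluronan synthase gene has1.S stood at 0.519, 1.76 and 0.326 CPM with 20 ng cMO and at 4.07, 7.71 and 5.4 CPM with MO2, against 0.887, 1.26 and 0.506 CPM with 10 ng cMO and 0.61, 1.56 and 0.588 CPM with MO1. Replicate 2 was the highest library in each of the 4 groups, and the MO2 libraries lay above all others. The difference was -2.81 ± 0.56 (adjusted p = 0.0077).

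The replication licensing factor cdc6.L stood at 32.6, 35.1 and 32.7 CPM with 10 ng cMO, 26.9, 35.1 and 31.3 CPM with MO1, 30.8, 35.3 and 28.2 CPM with 20 ng cMO and 48.4, 52.3 and 45.8 CPM with MO2. Again MO2 formed the high group, with a difference of -0.75 ± 0.11 (adjusted p = 0.00045). Of 55 tested genes of DNA replication and S phase, 2 were called (3.64%, against 0.775% of all genes), cdc6.L and the ribonucleotide reductase subunit rrm1.S (-0.50 ± 0.11, adjusted p = 0.017, lost without replicate 1 of any of the 4 groups). The median difference of the list was -0.23 log2, and 8 of 55 members had a difference above 0 (50.9% of all genes). An unadjusted p under 0.05 was found for 22 members, against 3493 of all 32110 genes. DESeq2 called 5 members, all lower with MO1, against 143 lower genes in all. Smaller MO2 rises were called for the muscle kelch protein klhl41.L (difference -0.68 ± 0.10, adjusted p = 0.00057) and the nicotinamide riboside kinase nmrk2.L (-0.66 ± 0.11, adjusted p = 0.0018). They were also called for the ubiquitin ligase adaptor dcaf12.L (-0.66 ± 0.11, adjusted p = 0.0018) and the glycolytic enzyme pgam1.L (-0.70 ± 0.13, adjusted p = 0.004). The copy pgam1.S differed by -0.03 ± 0.16 (adjusted p = 0.98). The splicing list had 2 of 61 members called (3.28%, against 0.775%), the splicing factor srsf5.L and the splicing kinase clk2.L, both higher with MO2 (-0.44 ± 0.09 and -0.53 ± 0.11, adjusted p = 0.01 and 0.013). The call of srsf5.L was lost without MO1 or MO2 replicate 1, and that of clk2.L without MO2 replicate 1 or replicate 2 of either control. In fyb.L, an adaptor protein of blood cells, the MO2 libraries stood at 7.71, 6.38 and 1.89 CPM, so replicate 3 lay inside the range of 1.53 to 1.95 CPM of its controls. Its difference of -1.84 ± 0.45 (adjusted p = 0.044) was kept in 2 of 12 fits that left out 1 library, those without replicate 2 of 10 ng cMO and without replicate 3 of MO2.

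Genes lowered by MO2 and not by MO1 included genes of liver and heart and the intestinal gene fabp2.L. In whole embryos, fewer cells of a type and less RNA per cell cannot be told apart. The sulfate transporter slc13a1.L stood at 2.33, 2 and 2.22 CPM with 20 ng cMO and 0.586, 1.05 and 0.614 CPM with MO2, against 1.89, 3.16 and 1.71 CPM with 10 ng cMO and 2.82, 2.76 and 2.25 CPM with MO1. The MO2 libraries lay below all others, with a difference of 1.78 ± 0.33 (adjusted p = 0.0052). The actin-binding protein gene tagln2.S differed by 0.58 ± 0.10 (adjusted p = 0.0016) through an MO2 response of -0.46 ± 0.07. Of 46 tested liver plasma protein genes, 4 had a higher response to MO1 than to MO2 (8.7%, against 0.567% of all genes). MO1 calls in this list were 3 higher and 15 lower (2.5% and 2.23% of all genes), and MO2 calls 0 higher and 20 lower (0.99% and 1.64% of all genes). Of the 4, the complement gene cfb.S rose with MO1 (2.05 ± 0.26, adjusted p = 7.7e-06) and was not called with MO2 (-0.26 ± 0.27, adjusted p = 0.73). The other 3 were called lower with MO2 and not called with MO1: the copies of complement C3, c3.L and c3.S, and the plasminogen copy plg.S. plg.S stood at 32.3, 30.2 and 41.5 CPM with 20 ng cMO and 12.5, 11.8 and 13.6 CPM with MO2, against 37, 36 and 38.9 CPM and 20.4, 31.6 and 33.8 CPM with 10 ng cMO and MO1. The MO2 libraries of plg.S were the lowest, and MO1 libraries lay below their controls without passing the test (-0.41 ± 0.15, adjusted p = 0.12). The difference was 1.04 ± 0.22 (adjusted p = 0.012), lost without replicate 3 of 10 ng cMO or MO2. The intestinal fatty acid binding protein gene fabp2.L differed by 1.25 ± 0.27 (adjusted p = 0.018), a call lost without replicate 1 or 3 of either control or MO2 replicate 2. It was the 1 called member of 62 in the gut and endocrine pancreas list (1.61%, against 0.775% of all genes). That list had a median difference of -0.05 log2 and a median MO2 response of 0.02, with MO2 calls 1 higher and 4 lower.

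Of 43 heart muscle genes, 3 were called, all with a higher response to MO1 (6.98%, against 0.567% of all genes), in 2 ways. nppb.S rose with MO1. nppa.L, the atrial natriuretic peptide, fell with MO2, from 2.82, 2.16 and 2.55 CPM to 0.925, 0.889 and 1.43 CPM (-1.20 ± 0.28, adjusted p = 0.014), beside an MO1 response of 0.42 ± 0.24 (adjusted p = 0.38). The heart transcription factor gata5.S fell with MO2 by 0.42 ± 0.11 on the log2 scale (adjusted p = 0.041). Its MO1 response was 0.34 ± 0.11 and not called (adjusted p = 0.077), so both responses enter its difference. The differences were 1.62 ± 0.37 for nppa.L (adjusted p = 0.024) and 0.75 ± 0.16 for gata5.S (adjusted p = 0.014). The copy nppa.S was not called, with an MO2 response of 0.36 ± 0.53 (adjusted p = 0.82) and a difference of 0.97 ± 0.72 (adjusted p = 0.68). The difference of gata5.L was not called either (0.34 ± 0.16, adjusted p = 0.41). The call of nppa.L was lost without replicate 1 of any group, replicate 2 of 10 ng cMO or MO2, or replicate 3 of 20 ng cMO, and that of gata5.S without replicate 1 or 3 of 10 ng cMO, MO1 replicate 1, MO2 replicate 2 or 20 ng cMO replicate 3.

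**Figure D3:**
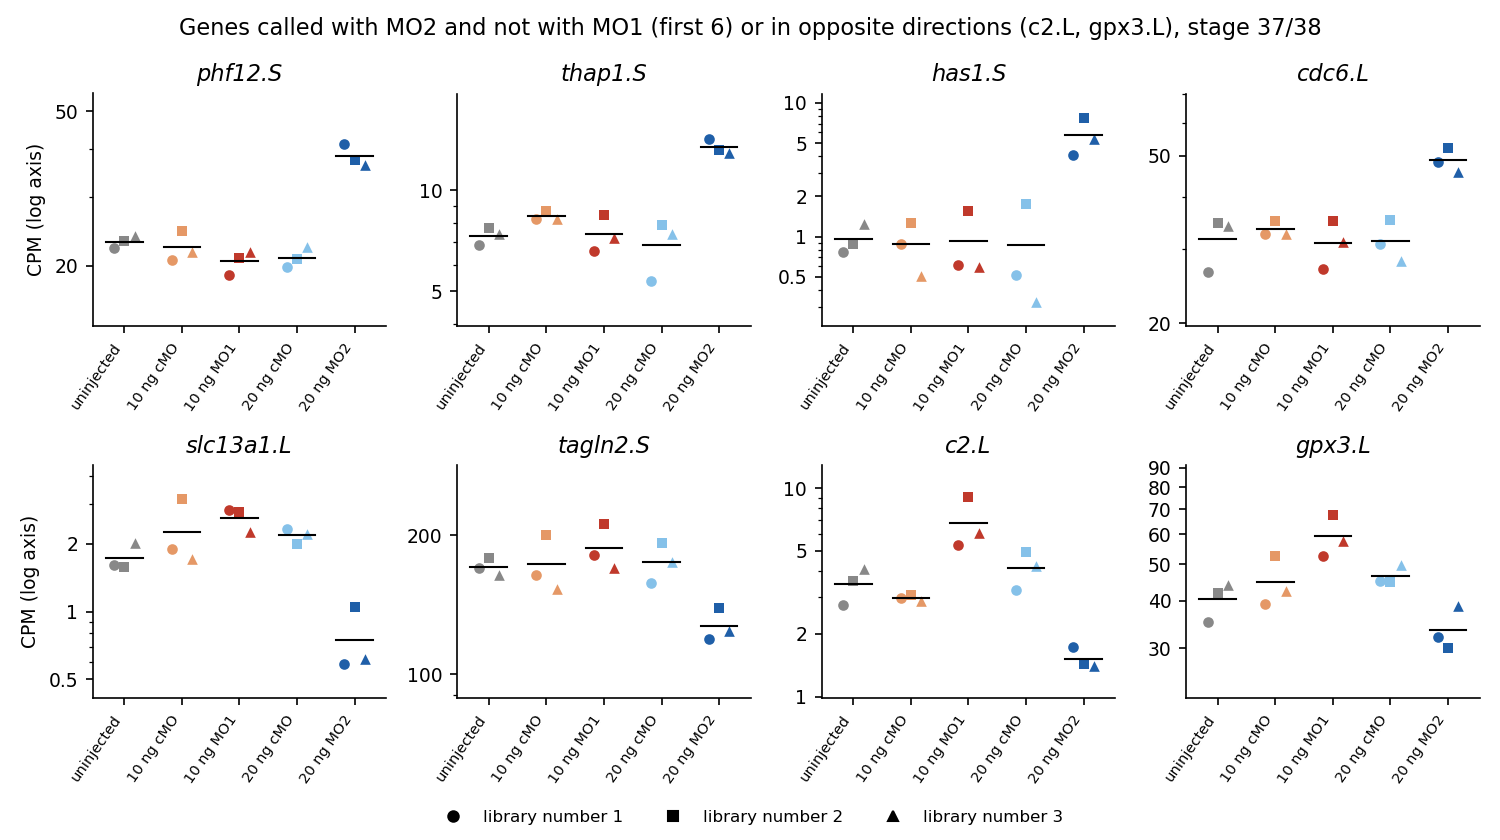
CPM on a log axis in each library at stage 37/38 for 6 genes called with MO2 and not MO1 and for c2.L and gpx3.L, called in opposite directions; symbols and bars as in the plot of MO1 genes. MO2 libraries are the highest in the upper row and the lowest injected libraries in the lower row, where MO1 libraries of c2.L and gpx3.L are above their own controls.

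The opposite pattern held 5 genes, each higher with MO1 and lower with MO2. In c2.L, complement component C2, the levels were 2.99, 3.08 and 2.88 CPM with 10 ng cMO and 5.35, 9.03 and 6.1 CPM with MO1. They were 3.24, 4.92 and 4.24 CPM with 20 ng cMO and 1.73, 1.44 and 1.41 CPM with MO2. MO1 libraries lay above and MO2 libraries below every control library. The responses were 1.17 ± 0.20 (adjusted p = 0.00028) and -1.43 ± 0.21 (adjusted p = 0.00015), and the difference 2.60 ± 0.29 (adjusted p = 5.3e-06). The growth factor midkine, mdk.L, differed by 0.80 ± 0.12 (adjusted p = 0.00036), the secreted glutathione peroxidase gpx3.L by 0.88 ± 0.13 (adjusted p = 0.00045) and kiaa0020.L by 0.88 ± 0.14 (adjusted p = 0.00082). The fifth has no symbol. In the other direction, odc1.S, the rate-limiting enzyme of polyamine synthesis, rose with both oligos and more with MO2 (0.29 ± 0.09 and 0.80 ± 0.09, adjusted p = 0.043 and 2e-06). Its difference of -0.51 ± 0.12 (adjusted p = 0.03) was kept in 3 of 12 fits that left out 1 library, those without MO1 replicate 2 or without replicate 3 of MO1 or MO2. The copy odc1.L differed by -0.06 ± 0.09 (adjusted p = 0.88), with responses of 0.19 ± 0.07 to MO1 and 0.26 ± 0.07 to MO2.

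The lists nearest to erythroferrone's known roles held no gene called in the difference between the oligos, and at 0.775% of all genes fewer than 1 call per list is the background, so these counts say nothing particular about the lists. In edgeR, 0 of 54 BMP genes (ligands, receptors and targets), 0 of 39 iron and haem genes and 0 of 29 red blood cell genes passed. An unadjusted p under 0.05 was found for 9, 6 and 2 of them, against 3493 of all 32110 genes. DESeq2 called 0, 1 and 0, against 437 in all. The median differences of these lists were 0.06, 0.08 and 0.10 log2. Endothelial genes fell with each oligo, 13 of 48 with MO1 (2.23% of all genes) and 11 of 48 with MO2 (1.64% of all genes). These were only in part the same genes. ramp2.L was called with MO1 alone (-0.94 ± 0.20, against -0.09 ± 0.19 with MO2). cdh5.S was called with MO2 alone (-0.85 ± 0.14, against -0.22 ± 0.14 with MO1). The difference was called for 0 of 48 in edgeR, again near the background of 0.775%, and for 0 in DESeq2 (437 genes in all). An unadjusted p under 0.05 was found for 6 of the 48, against 3493 of all 32110 genes. For tie1.S, an angiopoietin receptor family member, the responses were -0.45 ± 0.13 and -0.68 ± 0.13, and for fli1.S, an endothelial transcription factor, -0.47 ± 0.09 and -0.39 ± 0.09, each called. The haem synthesis enzyme alas2.S likewise fell with both, by 1.05 ± 0.23 and 0.86 ± 0.24 on the log2 scale. In its list 3 of 39 members were called lower with MO1 and 7 with MO2, and several with 1 oligo alone. ppox.L was called with MO2 (-0.42 ± 0.07, against -0.09 ± 0.07 with MO1). aco1.L was called with MO1 (-0.29 ± 0.06, against -0.11 ± 0.06 with MO2). A missing call does not show that the oligos act alike. The differences were 0.23 ± 0.18 for tie1.S, -0.08 ± 0.13 for fli1.S and -0.18 ± 0.33 for alas2.S. The bar plot of all 30 lists sets these shares beside the background.

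**Figure D4:**
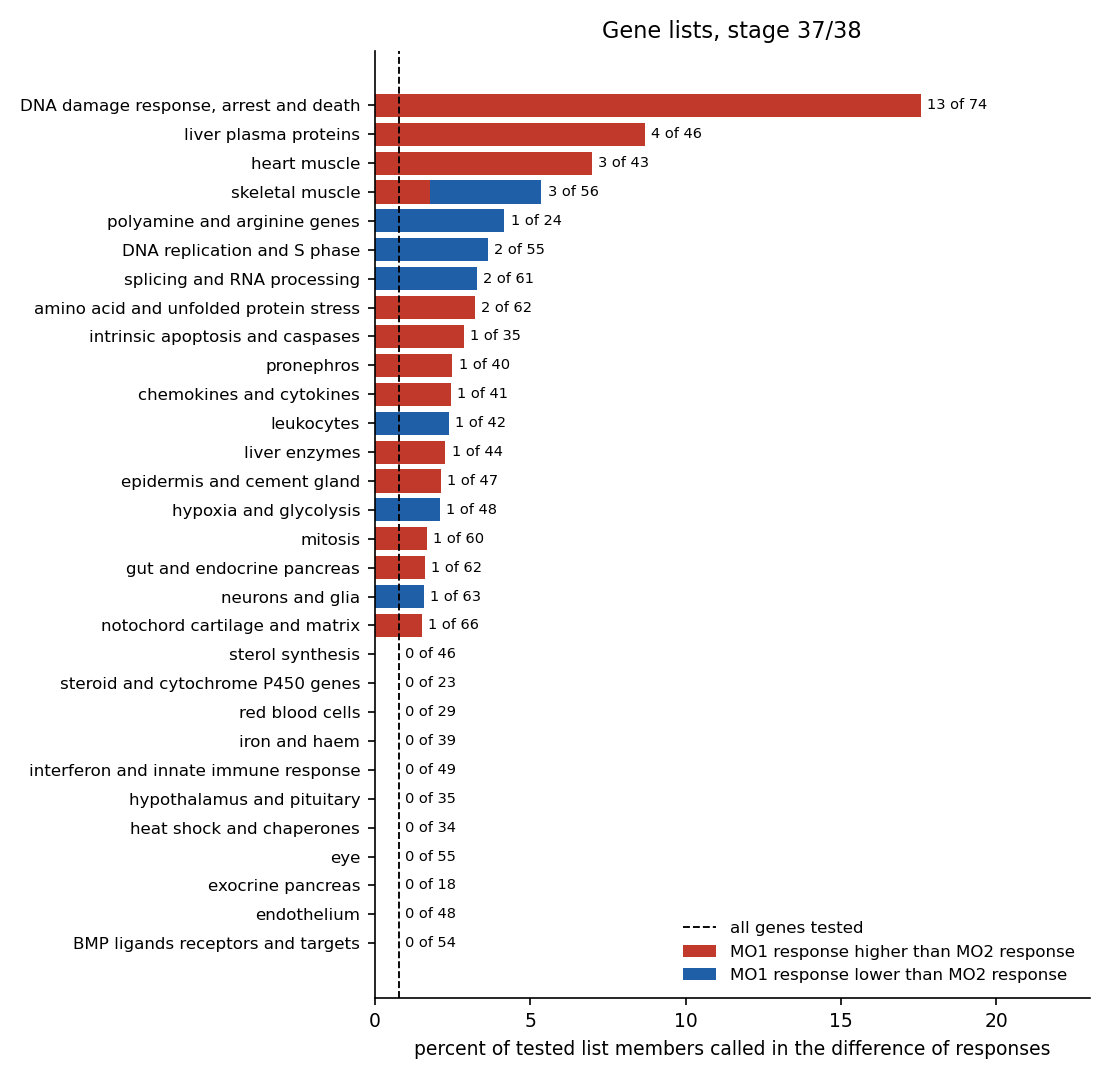
Percent of the tested members of each of 30 gene lists called in the difference of responses at stage 37/38, split by which oligo had the higher response; the dashed line is the share of all tested genes (0.775%). The damage response list stands at 13 of 74, ahead of liver plasma proteins at 4 of 46, and 11 lists hold 0 called members. List members were chosen with earlier results of these data known, so the order of the lists is a description.

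The same difference, measured in other libraries, kept its direction. At stage 41, 240 of the 249 genes (96.4%, and 59.2% of all genes) kept their sign, 72 were also called there and 0 were called in the opposite direction, where 402 genes (1.25%) were called in all, 158 higher with MO1 (0.492%) and 244 lower (0.76%). At stage 35/36, with 2 MO2 libraries, 242 (97.2%, and 60.6% of all genes) kept their sign and 59 were called, among 116 called in all (0.361%). Differences were smaller at stage 41: the 140 genes raised by MO1 alone had a median of 1.08 log2 at stage 37/38, 0.58 at stage 41 and 0.81 at stage 35/36. These genes were selected at stage 37/38, so their sizes at the 3 stages are a description. In edgeR 0 genes (0%) differed between stage 37/38 and stage 41 in the test of that difference, with 1908 at an unadjusted p under 0.05 and 1 called in DESeq2. At stage 41, mdm2.L differed by 0.99 (adjusted p = 0.011), phf12.S by -0.85 (adjusted p = 0.0023) and cdc6.L by -0.81 (adjusted p = 0.0023), while c2.L stood at 0.60 (adjusted p = 0.33). Embryos of the 3 stages share the injection design and may share clutches, so the stages are not known to be independent experiments.

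**Figure D5:**
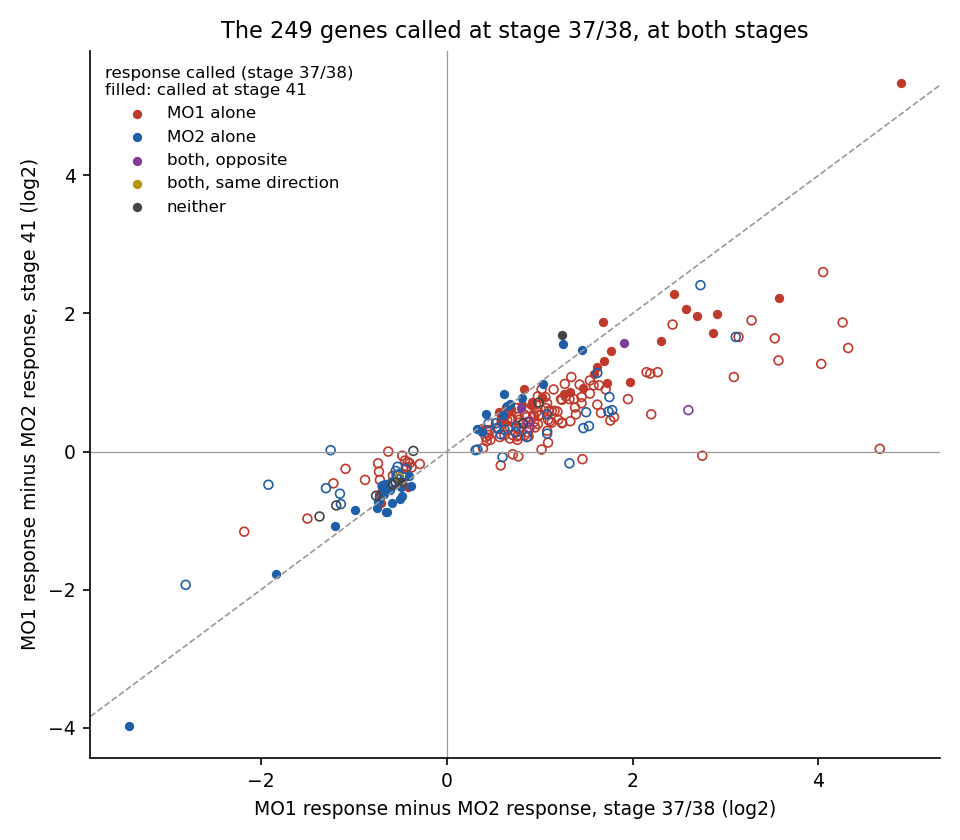
Difference between the MO1 and MO2 responses (log2) at stage 37/38 (horizontal) and stage 41 (vertical) for the 249 genes called at stage 37/38; filled points were also called at stage 41, colours give which response was called, and the dashed line marks equal differences. All but 9 points lie in the quadrants of equal sign, and most lie nearer to 0 at stage 41.

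Homeologous copies often differed in the same direction. Of 227 called genes whose name ends in .L or .S, 174 had a tested homeolog, and 146 of those homeologs (83.9%, against 61.2% of 9503 tested pairs) differed with the same sign; 14 pairs had both copies called. The 249 calls also rest on how same-numbered libraries are treated and on single libraries. All 249 kept their direction in the 23 alternative fits, as far as they were tested there. They were selected on these same libraries, where their responses did not overlap, so a kept direction adds no support. The number called without the replicate term was 24. It fell to 113 without MO2 replicate 1, 123 without MO1 replicate 1, 129 and 140 without replicates 1 and 3 of 10 ng cMO and 151 and 161 without replicates 3 and 2 of 20 ng cMO, each fit with fewer libraries. In the 12 libraries each replicate number shares a sequencing lane, except that MO2 replicate 1 lies in another lane. The 2 numbers within single lanes alone called 26 genes, and a lane term left 102.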

How the data were processed

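Per the labels' protocols, RNA of whole embryos was isolated with Trizol and sequenced from TruSeq RNA v2 libraries. The authors deposited read counts per gene, 1 file per library with 45038 identifiers. Per the submitters' processing notes, bcl2fastq 2.17.1.14, FastQC 0.11.5, STAR 2.5.2a, featureCounts 1.5.0-p1 and DESeq2 1.8.2 were used; the sources used here do not give the genome build, the annotation or the handling of multi-mapping reads. The kit does not mark strand, so overlapping antisense genes cannot be told apart, and homeologs can share reads.

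Counts were tested in R 4.3.3 with edgeR 4.0.16: filterByExpr (count minimum 10) kept 32110 genes and 99.97% of counts, scaled by TMM (factors 0.975 to 1.03). The quasi-likelihood model had a term for each of 15 groups and for replicate number within stage, over 44 libraries (23 residual degrees of freedom). A gene is called at a Benjamini-Hochberg adjusted p under 0.05 over all genes of a comparison, from two-sided tests. Log2 fold changes use a prior count of 0.125, and SE are Wald SE. CPM are scaled to TMM library sizes and are not corrected for gene length. The procedure was also run on simulated counts that held a replicate effect and no lane effect. That run therefore cannot show how far the calls depend on the replicate term or on lanes. After subtraction of group means, libraries with the same number correlated at 0.49 to 0.663 in 18 of 18 pairs (different numbers at most -0.149), and each of the 12 libraries was closest to its own number, so replicate number was kept as a block; the labels do not say what the numbers share. The stage score is the slope of a library on uninjected development over 3557 genes.

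Genes were picked for naming by rule, starting with fam132b. Per pattern and direction, up to 8 called genes with a symbol with the largest difference were picked. Up to 6 with the smallest p were added, in each case at 1 CPM or more. Up to 6 called with both oligos and up to 5 called members per list followed, with homeologs. Not every picked gene is printed: msc.S, lower with MO1 (difference -1.50 ± 0.35, adjusted p = 0.026), is among those left out. The examples from the endothelial and the iron and haem lists, slc12a1.L and the genes without a symbol were printed outside the rule. Further called members of the damage response list were printed in addition; 1 gene of that list is not reported here, and both of its copies (2 tested members) are left out of the list's counts. The members, the 30 lists and the tests were chosen with earlier results of these data known. Of 202 called genes with a symbol, 180 (89.1%) matched the supplied RefSeq table. The alternatives were RLE scaling, no filter, DESeq2 1.42.0, no replicate term, other sets of libraries, a lane term, MO1 against MO2 without controls, and leaving out libraries.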

Additional observations from a re-analysis of the deposited data

How the results depend on the processing

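All 249 called genes kept their direction under every alternative in which they were tested (248 of 249 were tested in the fits of the 12 or 15 libraries of the stage alone). The genes were selected on these same libraries, so a kept direction was close to given and adds no support. For the genes picked by the naming rule, homeologs aside, 1206 gene values under alternatives kept their side of the threshold, 498 lost it and 0 reversed. RLE scaling called 248 genes (247 shared with the 249), no filter on low counts 247 and the 12 libraries alone 239 (168 shared). DESeq2 called 437 (294 higher, 143 lower) at stage 37/38, 763 at stage 41 and 248 at stage 35/36. MO1 against MO2 without controls called 1739 (1006 and 733), a contrast with fewer libraries and less error.

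Without the replicate block 24 genes were called (21 higher, 3 lower), with 258 for MO1, 46 for MO2, 261 for MO1 against MO2 directly, and 2 and 3 for the difference at stages 41 and 35/36. The alternative with all 45 libraries adds back the MO2 library of stage 35/36 that was left out. The counts of that alternative were 141 (106 and 35), 514 for MO2, 92 at stage 41 and 3 at stage 35/36. A lane term gave 102 (80 and 22), 203 for MO2, 638 for the direct contrast, 177 at stage 41 and 63 at stage 35/36. Leaving out 1 library gave 113 to 395 (89 to 283 higher, 24 to 112 lower), 722 to 1514 for MO1, 225 to 893 for MO2 and 745 to 1755 for the direct contrast. Leaving out 1 replicate number of all 4 groups gave 26 without number 1 (22 and 4), 188 without number 2 (153 and 35) and 42 without number 3 (26 and 16). In the same order it gave 426, 712 and 676 for MO1, 112, 389 and 283 for MO2, and 385, 1172 and 823 for the direct contrast; 20 against 10 ng cMO stayed at 0. The causes of these changes were not tested. At this depth and number of libraries a change of several SE could go uncalled. The difference of slc12a1.L, 0.71 ± 0.18, did not pass (adjusted p = 0.056), and that of epyc.L, -0.73 ± 0.18, barely did (adjusted p = 0.048). Rare transcripts near 3 counts are the least certain.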

Other observations

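Complement genes were looked at as a group after c2.L had been seen, so their counts carry no test. Of 23 tested complement components, regulators and receptors, 4 had a higher response to MO1 than to MO2 (0.567% of all genes), 0 a lower one, and 20 had a difference above 0 (50.9% of all genes), with a median of 0.64 log2. Besides c2.L, the 4 were factor B, cfb.S (difference 2.31 ± 0.38, adjusted p = 0.0012), which with C2 belongs to the proteases that activate C3, and both copies of C3, c3.L (1.08 ± 0.24, adjusted p = 0.02) and c3.S (1.32 ± 0.30, adjusted p = 0.024). cfb.S stood at 2.45, 3.59 and 1.95 CPM with 10 ng cMO and 7.5, 19 and 8.13 CPM with MO1, against 3.11, 4.46 and 4.92 CPM with 20 ng cMO and 4.35, 3.95 and 2.33 CPM with MO2. MO1 replicate 2 was the highest library of cfb.S and of c2.L, and both calls held without it. For c3.L the responses were 0.43 ± 0.17 with MO1 (adjusted p = 0.16) and -0.66 ± 0.17 with MO2 (adjusted p = 0.031), and the call of the difference was lost in 7 of 12 fits that left out 1 library, among them the one without MO1 replicate 2. At stage 41 the difference of c3.S was -0.17.

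At stage 41, 12 of 55 genes of DNA replication and S phase had a lower response to MO1 than to MO2 (0.76% of all genes) and 0 a higher one (0.492% of all genes), beside the 2 lower calls at stage 37/38; the difference between the stages was called for 0 of all genes in edgeR (1908 at an unadjusted p under 0.05) and 1 in DESeq2. Of 60 mitosis genes, 1 was higher and 9 lower at stage 41. The median differences at stage 37/38 were -0.23 and -0.11 log2. Eye genes had a median difference of -0.20 log2 with 0 of 55 called in edgeR or DESeq2. An unadjusted p under 0.05 was found for 0 of the 55, against 3493 of all 32110 genes.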
